A study of Mus musculus with 12 samples.

Results

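Bone-marrow monocytes of wild-type (WT) mice were compared with those of Nr4a3 knockout (KO) mice after 1 day in GM-CSF plus IL-4, the usual cytokines for growing dendritic cells from monocytes in a dish. The comparison was made up of the libraries whose labels give this culture time, 2 WT and 2 KO, out of 12 libraries in the series. All mice were on a C57BL/6 background. The other 8 libraries were freshly sorted monocytes and cells cultured for 2 days, again 2 of each genotype, and they entered the shared estimate of spread and a few comparisons across stages. Each member of a group came from its own experiment, per the labels, and deposited files that carry the same date put WT replicate 1 with KO replicate 1 (pair 1) and WT replicate 2 with KO replicate 2 (pair 2). The labels give neither the sex and age of the mice, nor how many gave cells to a library, nor which part of Nr4a3 the knockout allele lacks.

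Nr4a3, Nr4a1 and Nr4a2 form the NR4A family of orphan nuclear receptors. These receptors have no known physiological ligand, are controlled mainly by how much of them a cell makes, and as monomers bind the DNA element AAAGGTCA, named NBRE. Monocytes given GM-CSF signal through STAT5 and those given IL-4 through STAT6, and as they become dendritic cells they load peptides on MHC class II molecules. When such cells mature they switch on a program for leaving the tissue, with Ccr7, the receptor that guides dendritic cells to lymph nodes, and Fscn1, which bundles actin in their dendrites. The series title names the question as the part NR4A3 plays in this differentiation.

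The library labelled KO replicate 1 stood apart from the other 3 before any comparison was made. Reads counted in genes were 11996973 and 12185629 in WT replicates 1 and 2 and 10733224 and 18447405 in KO replicates 1 and 2. Levels below are CPM, that is counts relative to library size after scaling by TMM factors, and are not corrected for gene length. In a principal component analysis of all 12 libraries the first component held 52.9% of the variance, with monocytes at -139.8 to -115.5 and day 2 cells at 78.5 to 101.9. On it the library labelled KO replicate 1 lay at 1.59, and the other 3 day 1 libraries lay between 38.4 and 46.7. Its Spearman correlation across genes with those 3 was 0.951 to 0.959, and the closest pair of day 1 libraries was WT replicate 2 with KO replicate 2 at 0.987. No day 1 libraries were within sampling noise of each other, with chi-square per degree of freedom from 11.1 to 132.8. All 4 expressed genes of the monocyte lineage: Csf1r, the M-CSF receptor, was at 1281 and 834.4 CPM in WT and 1591 and 903.2 CPM in KO, and Cd74, the MHC class II chaperone, at 6183 and 4295 CPM in WT and 6366 and 4087 CPM in KO. Over the day 1 libraries the marker list of T and NK cells summed to 0.779 to 3.10 CPM, with Ncr1 and Klrb1c at 0 reads, that of B cells to 25.2 to 36.6 CPM and that of erythroid cells and megakaryocytes to 27.8 to 115.6 CPM, with 7 of 14 at 0 reads. Stromal markers summed to 5.89 to 11.2 CPM, those of eosinophils, basophils and mast cells to 24.3 to 42.0 CPM, those of plasmacytoid dendritic cells to 73.7 to 161.5 CPM and those of neutrophils to 1016 to 2402 CPM, the largest of these sums. Most of the plasmacytoid sum was Bst2, at 59.5 and 66.7 CPM in WT and 146.8 and 59.8 CPM in KO. Bst2 is also on the list of interferon-stimulated genes described below. Most of the erythroid and megakaryocyte sum was Pf4, at 21.4 and 93.8 CPM in WT and 85.3 and 29.4 CPM in KO.

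Nr4a3 itself was present at a low level in WT cells at this time. It had 200 and 128 reads in the WT libraries, or 16.5 and 10.4 CPM. KO replicate 2 held 0 reads, which allows up to 0.164 CPM, and the library labelled KO replicate 1 held 76 reads, or 6.58 CPM. Both KO libraries lay below both WT libraries, but the first lay much nearer to WT than to its replicate. The ratio was 2.51-fold lower in pair 1 (95% exact binomial interval 1.92 to 3.31) and at least 63.6-fold lower in pair 2, taking 0 reads as 3. These intervals and floors cover counting error only. The edgeR quasi-likelihood test gave a log2 fold change of -2.10 ± 1.24 (SE) with an adjusted p of 1. The labels leave unsaid what the allele removes. Whether the reads in KO cells lie outside the removed part was not tested, and the count does not settle the label. KO cells at day 2 held 39.0 and 19.3 CPM, against 1287 and 1358 CPM in WT cells, a far wider gap than that of pair 1 at day 1. Every value from the library labelled KO replicate 1 below carries this doubt. Pair 2 does not hold that library, and its ratios often differed from those of pair 1. The file names of the pair 2 libraries say 16 hours where the labels say 1 day. Nr4a1 had 0.495 and 0.979 CPM in WT and 0.693 and 1.53 CPM in KO. Nr4a2 had 3.72 and 1.06 CPM in WT and 0.260 and 0.985 CPM in KO. Its lowest value was that of the library labelled KO replicate 1, with 3 reads, whereas Nr4a3 was lowest in KO replicate 2. Nr4a3 lies on chromosome 4 at chr4:48045153-48086447 of GRCm38, on the plus strand.

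Across all genes, the replicated test found no difference between KO and WT cells at day 1. Of 14034 genes tested with edgeR, 0 were higher and 0 lower at an adjusted p under 0.05, and at an unadjusted p under 0.05 there were 185 higher (1.32%) and 67 lower (0.477%), or 252 in all (1.8%). DESeq2 called 2 higher (Abi3 and Bmx, 0.0143%) and 1 lower (Azin2, 0.00713%), all genes of low level in WT. Abi3, an adaptor linked to actin branching, had 0.661 and 0.898 CPM in WT and 24.8 and 1.97 CPM in KO. Bmx, a Tec-family kinase, had 0 reads in both WT libraries and 41 and 13 reads in KO, and Azin2, an antizyme inhibitor, had 26 and 22 reads in WT and 0 in both KO libraries. Without the filter on low counts edgeR called 112 higher and 28 lower. A design of 2 against 2 cannot go below an exact two-sided permutation p of 0.333 for a single gene, so what follows describes each pair by its log2 ratio of CPM (prior count of 2), beside the gap between both WT libraries.

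The pairs differed from each other in size and in direction. In pair 1, 1717 genes were at least 2-fold higher in KO (12.2%) and 1171 at least 2-fold lower (8.34%), and in pair 2 there were 616 (4.39%) and 872 (6.21%). The 2 WT libraries were at least 2-fold apart for 2596 genes (18.5%). Fewer passed among genes of higher level: of the 9669 genes with a mean of at least 5 CPM, pair 1 held 584 higher (6.04%) and 395 lower (4.09%), pair 2 held 50 (0.517%) and 103 (1.07%), and the WT libraries were 2-fold apart for 660 (6.83%). At that level the median absolute log2 ratio was 0.31 in pair 1, 0.15 in pair 2 and 0.36 between the WT libraries, so KO replicate 2 was nearer to its own WT partner than WT was to WT. Only 10 of the 9669 genes were 2-fold higher in both pairs (0.103%) and 8 lower in both (0.0827%), and 61 went 2-fold opposite ways (0.631%). Over all tested genes 163 were higher in both (1.16%), 135 lower in both (0.962%) and 446 opposite (3.18%), of which 318 were higher in pair 1 and lower in pair 2 (2.27%) and 128 the reverse (0.912%). The 2 KO libraries lay above both WT libraries for 1448 genes (10.3%) and below both for 1271 (9.06%).

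**Figure D1:**
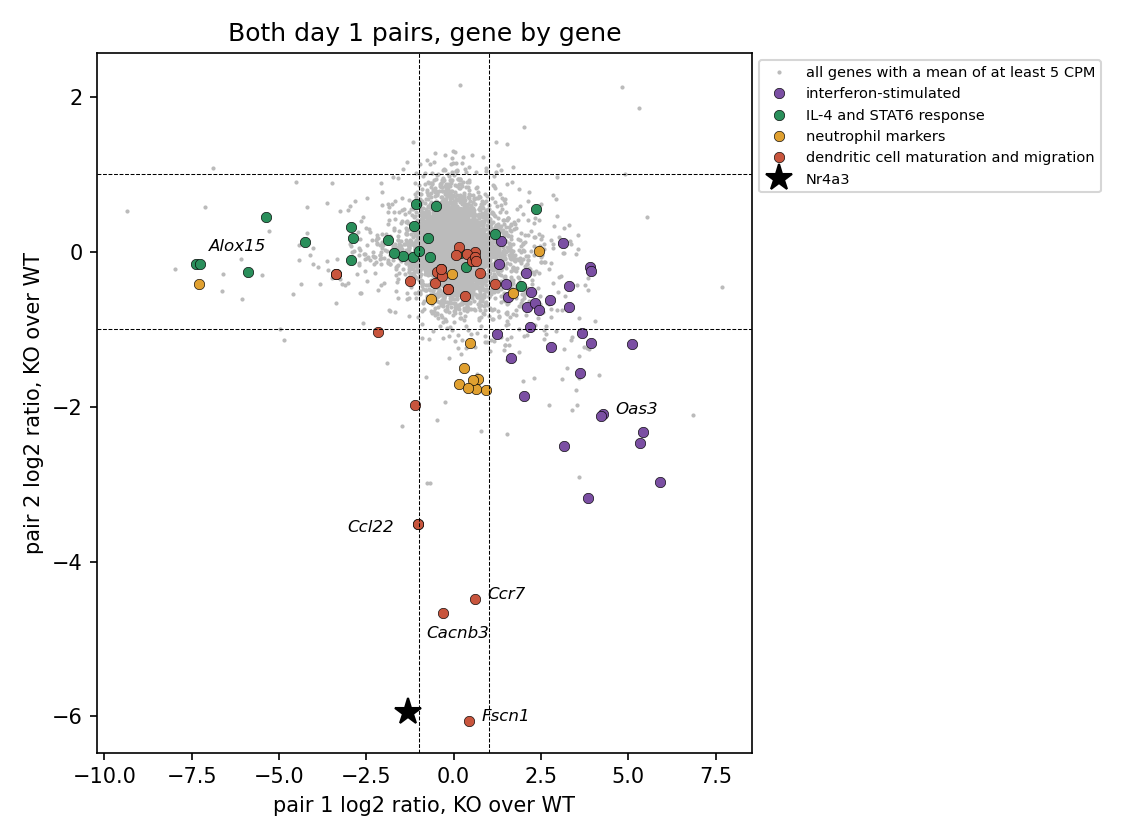
Each point is 1 gene with a mean of at least 5 CPM over the day 1 libraries, placed by its log2 ratio of KO over WT in pair 1 (x axis) and pair 2 (y axis), with dashed lines at 2-fold and members of 4 gene lists in colour. IL-4 response genes spread to the left in pair 1 and sit near 0 in pair 2, interferon-stimulated genes lie to the right and below, and Fscn1, Ccr7, Cacnb3 and Ccl22 lie with Nr4a3 at the bottom.

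In pair 2, the lowest ratios after those of Fscn1 and Nr4a3 among genes with a mean of at least 5 CPM were those of Cacnb3, Ccr7 and Ccl22, and all but Nr4a3 are on the list of dendritic cell maturation and migration. This list was chosen with earlier results of these data known, so its counts are not independent of them. Of 30 list members tested, 10 were at least 2-fold lower in KO replicate 2 than in its WT partner and 0 higher. Of all tested genes, 6.21% were lower and 4.39% higher in this pair. The median log2 ratio of the list was -0.39 beside 0.01 for all genes, or -0.40 at the bound. For medians at the bound, counts under 3 were raised to 3. Genes with at most 3 reads in both libraries of the pair were left out of them. In pair 1 the list held 5 lower and 3 higher, where 8.34% and 12.2% of all tested genes were. Its median there was 0.12 (0.17 at the bound) beside 0.00 for all genes, while its median edgeR log2 fold change was -0.31. edgeR called 0 members at an adjusted p under 0.05, and 4 were lower at an unadjusted p under 0.05. In bulk RNA, fewer cells that express a gene and less RNA per cell cannot be told apart.

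Fscn1 had 24.5 and 22.2 CPM in the WT libraries and 33.2 CPM in the library labelled KO replicate 1, but 0.164 CPM, or 3 reads, in KO replicate 2. It was thus 135-fold lower in pair 2 (interval 45.8 to 660) and slightly higher in KO in pair 1, with a log2 ratio of 0.43. The 3 high libraries lay close together and 1 KO library lay far below them. Ccr7 had 10.1 and 7.35 CPM in WT, 15.4 CPM in the library labelled KO replicate 1 and 0.164 CPM, again 3 reads, in KO replicate 2. Its ratio was 44.8-fold lower in pair 2 (interval 14.8 to 221), and in pair 1 its log2 ratio was 0.60. Cacnb3, a voltage-gated calcium channel beta subunit, had 11.97 and 11.1 CPM in WT, 9.61 CPM in the first KO library and 0.274 CPM in the second, a ratio 40.6-fold lower in pair 2 (interval 17.0 to 127). For these 3 genes 1 of 2 KO libraries was low, and the edgeR log2 fold changes were -0.50 ± 1.35, -0.19 ± 1.28 and -1.27 ± 1.04. Adcy6, an adenylate cyclase that makes cyclic AMP, had 4.38 and 6.77 CPM in WT and 3.03 and 0.602 CPM in KO, below WT in both pairs, and its log2 ratios were -0.51 and -3.17.

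Ccl22, a chemokine that draws CCR4-bearing T cells, had 159.6 and 222.1 CPM in WT, 79.3 CPM in the library labelled KO replicate 1 and 19.3 CPM in KO replicate 2. Both KO libraries lay below both WT libraries, by 2.01-fold in pair 1 (interval 1.86 to 2.18) and 11.5-fold in pair 2 (interval 10.3 to 12.9). Its edgeR log2 fold change was -1.96 ± 0.57, with an adjusted p of 1. Cd83, a surface marker of mature dendritic cells, had 14.5 and 36.9 CPM in WT and 6.67 and 9.25 CPM in KO, so the groups did not overlap, and it was 2.18-fold lower in pair 1 and 3.99-fold lower in pair 2. Il4i1, a secreted amino acid oxidase, had 107.0 and 95.5 CPM in WT and 23.6 and 46.5 CPM in KO, 4.53-fold and 2.05-fold lower. Here the lower KO library was the first, not the second. Aldh1a2, which makes retinoic acid from retinal, had 12.2 and 13.7 CPM in WT and 4.24 and 2.74 CPM in KO, 2.88-fold and 5.01-fold lower, and its WT libraries differed less than either pair did. Mir155hg, the host transcript of miR-155, had 4.63 and 12.9 CPM in WT and 2.86 and 1.48 CPM in KO. Its pair 1 ratio was under 2-fold and its pair 2 ratio 8.73-fold lower.

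**Figure D2:**
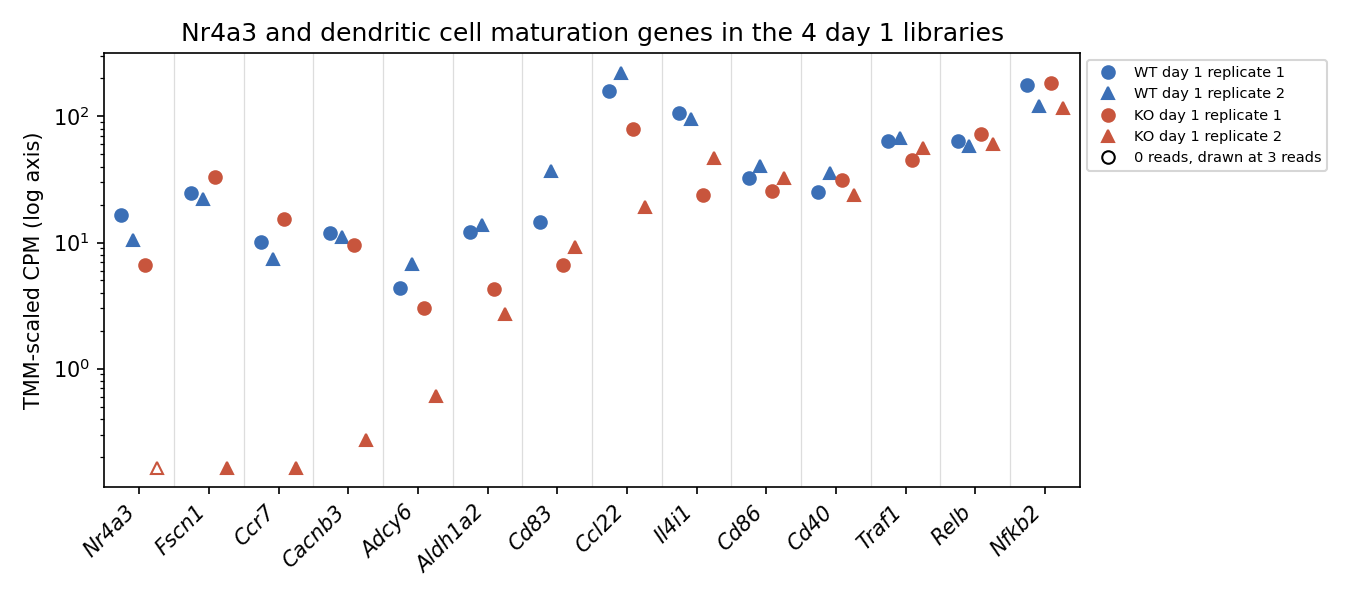
TMM-scaled CPM on a log axis for Nr4a3 and 13 genes of dendritic cell maturation or retinoic acid synthesis in the 4 day 1 libraries, with WT in blue, KO in red, circles for replicate 1, triangles for replicate 2 and an open symbol for 0 reads drawn at 3 reads. KO replicate 2 is at 0.164 CPM for Fscn1 and Ccr7, where the other 3 libraries are at 7.35 CPM or more, while both KO libraries lie below both WT libraries for Cd83, Ccl22, Il4i1 and Aldh1a2.

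3 more list members, Il15, Il12b and Cd200, were 2-fold lower in pair 2, each at under 3 CPM in every day 1 library, and several well-known maturation genes were within 2-fold. Cd86 and Cd40, costimulatory molecules, had 32.3 and 40.1 CPM and 25.1 and 35.6 CPM in WT against 25.8 and 32.2 CPM and 31.4 and 23.9 CPM in KO. Relb and Nfkb2, subunits of the alternative NF-kB pathway, had pair 2 log2 ratios of 0.06 and -0.04. Ccl17, a second CCR4 ligand, had 1411 and 2895 CPM in WT, 136.1 CPM in the library labelled KO replicate 1 and 2370 CPM in KO replicate 2, so its low value fell in the other KO library than for Ccr7. Of the list, 20 members were within 2-fold in pair 2. Ccr7, Fscn1, Cacnb3, Adcy6 and Mir155hg were chosen for description after their values were seen.

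When KO replicate 2 was set against whichever WT library was nearer, 25 of the 9669 genes with a mean of at least 5 CPM were still 2-fold lower (0.259%) and 7 were 2-fold higher (0.0724%). The 25 included Nr4a3 and 5 members of the maturation list, Fscn1, Ccr7, Cacnb3, Ccl22 and Il4i1, and among the others were Aldh1a2 and Mir155hg. Tbc1d4, a regulator of vesicle traffic, had 5.95 and 11.3 CPM in WT and 10.3 and 2.13 CPM in KO, and Ly75, the endocytic receptor DEC-205, had 8.09 and 9.96 CPM in WT and 9.35 and 3.89 CPM in KO. Over all tested genes, 256 were below both WT libraries in this library (1.82%), and 7 of the 30 maturation genes were, the 2 further ones being Adcy6 and Cd200. Of the 25, 3 were on the neutrophil list (Ltf, Ngp and Cd177) and 1 was interferon-stimulated (Oas3). Pglyrp1, a bactericidal protein of neutrophil granules that is on neither list, was also among them, at 13.2 and 12.4 CPM in WT and 9.44 and 2.63 CPM in KO. Neutrophil markers were lowest in KO replicate 2, with a summed level of 1016 CPM against 1327 and 2402 CPM in WT and 1870 CPM in the library labelled KO replicate 1, and their part in the maturation result was not tested.

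Promoter windows from RefSeq (GRCm38.p6; 250 bases before to 50 after the annotated start) were searched on both strands for AAAGGTCA, the element that NR4A monomers bind. Those of Ccl22, low in both KO libraries, and Fscn1, the gene with the largest pair 2 ratio of the list, are shown 5′ to 3′ on the plus strand, with the shorter element AGGTCA, which lies within AAAGGTCA, in capitals.
Ccl22 promoter, chr8:94745434-94745733: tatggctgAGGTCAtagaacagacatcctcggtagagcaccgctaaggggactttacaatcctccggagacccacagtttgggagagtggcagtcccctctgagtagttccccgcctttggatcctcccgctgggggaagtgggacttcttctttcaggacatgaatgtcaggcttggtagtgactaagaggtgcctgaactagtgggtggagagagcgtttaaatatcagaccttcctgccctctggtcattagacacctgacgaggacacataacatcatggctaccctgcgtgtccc
Fscn1 promoter, chr5:142960105-142960404: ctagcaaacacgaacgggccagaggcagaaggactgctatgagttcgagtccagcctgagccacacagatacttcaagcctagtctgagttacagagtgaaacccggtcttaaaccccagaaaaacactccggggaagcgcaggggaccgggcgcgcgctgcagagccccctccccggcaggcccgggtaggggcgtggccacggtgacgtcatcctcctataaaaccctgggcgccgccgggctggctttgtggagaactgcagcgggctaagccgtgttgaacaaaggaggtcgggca
Neither holds AAAGGTCA on either strand, and the Ccl22 window holds AGGTCA once, on its plus strand. Of the maturation list 18 of 30 genes had a window, with AAAGGTCA in 0 and AGGTCA in 2 (Ccl17 and Ccl22, 11.1%). Among all tested genes with a window, 112 of 9769 (1.15%) held AAAGGTCA and 1459 (14.9%) held AGGTCA. Among genes 2-fold lower in both pairs the counts were 0 and 12 of 64 windows (18.8%), and among those 2-fold higher in both pairs 2 and 9 of 92 (2.17% and 9.78%). A match describes letters, not binding, and these windows leave out enhancers.

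Few genes were 2-fold the same way in both pairs at a level that could be read well. With a mean of at least 10 CPM they were Cd83, Il4i1, Ccl22 and Lrrc32 below WT and Adgre4, Ly6i, Fgd4 and Tspan32 above it. Lrrc32, which docks latent TGF-beta on the cell surface, had 21.4 and 37.0 CPM in WT, 0.519 CPM in the library labelled KO replicate 1 and 18.4 CPM in KO replicate 2, so its 2 ratios were of very different size. Adgre4, an adhesion receptor of mouse monocytes related to F4/80, had 2.31 and 2.12 CPM in WT and 70.0 and 9.85 CPM in KO, and its groups did not overlap. It had been at 40.0 to 93.7 CPM in the 4 monocyte libraries, so the day 1 KO libraries lay nearer to that level than the WT libraries did. Ly6i, a surface protein of the Ly6 family, had 1.24 and 0.326 CPM in WT and 55.1 and 1.64 CPM in KO. Fgd4, an activator of the GTPase Cdc42, had 8.26 and 7.92 CPM in WT and 27.1 and 17.1 CPM in KO, which lay well outside the gap between the WT libraries. Tspan32, a tetraspanin of blood cells, had 8.09 and 4.16 CPM in WT and 21.1 and 8.81 CPM in KO. Of these 8 genes edgeR called 0, with unadjusted p between 0.00583 (Ccl22) and 0.155 (Lrrc32).

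Among genes with a mean of at least 20 CPM in pair 1, those furthest below WT were Rnase2a, Rufy4, Ccl24, Cxcr2, Alox15, Flt1, Sept3 and Retnla, and those furthest above were Rtp4, P2ry13, Oasl2, Ly6i, Oas2, Adgre4, Oas3 and Irf7. Of 27 tested genes of the IL-4 and STAT6 list, 17 were at least 2-fold lower and 3 higher in pair 1. Of all tested genes, 8.34% were lower and 12.2% higher there. In pair 2, 1 was lower and 1 higher, beside 6.21% and 4.39%. The median log2 ratios of the list were -1.16 and -0.01. Ccl17 and Ccl22 belong both to this list and to the maturation list. The summed level of the 27 was 10040 and 11820 CPM in WT, 2620 CPM in the library labelled KO replicate 1 and 11930 CPM in KO replicate 2, and 2723 to 5022 CPM in the monocyte libraries. In the first KO library 14 of the 27 were 2-fold below both WT libraries, where 5.42% of all tested genes and 2.68% of those with a mean of at least 5 CPM were.

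Arg1, the arginase of alternatively activated macrophages, had 49.2 and 156.0 CPM in WT, 2.42 CPM in the library labelled KO replicate 1 and 171.0 CPM in KO replicate 2, 20.3-fold lower in pair 1 (interval 13.9 to 30.8). Retnla, a secreted protein of the same state, had 99.8 and 185.6 CPM in WT and 2.25 and 253.3 CPM in KO. Ccl24, an eosinophil-attracting chemokine, had 288.2 and 639.3 CPM in WT and 1.56 and 574.6 CPM in KO. Alox15, a lipoxygenase induced by IL-4, had 91.9 and 56.6 CPM in WT and 0.433 and 50.9 CPM in KO, or 212-fold lower in pair 1 (interval 90.7 to 655). For all 4 genes KO replicate 2 lay within 2-fold of its WT partner and the first KO library lay far under both WT libraries. Flt1, a VEGF receptor, had 457.0 and 229.5 CPM in WT and 7.53 and 191.1 CPM in KO. Rnase2a, an eosinophil-associated ribonuclease, and Rufy4, an adaptor of the autophagy pathway, had 112.3 and 172.7 CPM and 43.3 and 34.9 CPM in WT, and both had 0 reads in the library labelled KO replicate 1, at least 432-fold and 167-fold lower in pair 1. Chil3 and Mgl2, a chitinase-like protein and a lectin, kept 277.4 and 279.2 CPM there, where the other 3 libraries had 2047 to 4238 CPM and 1280 to 2153 CPM. The genes of the pathway itself were present: the receptor chain Il4ra was at 246.6 CPM and Stat6 at 280.0 CPM in this library, against 177.6 to 193.2 CPM and 211.4 to 247.9 CPM in WT.

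Several genes of dendritic cell identity were also low in the library labelled KO replicate 1, and others of the list were higher there. Irf4, a transcription factor of this cell type, had 760.3 and 551.8 CPM in WT and 234.9 and 546.5 CPM in KO. Batf3 had 82.8 and 135.3 CPM in WT and 10.6 and 125.3 CPM in KO, and Zbtb46, a factor typical of dendritic cells, 35.1 and 30.1 CPM in WT and 5.37 and 33.7 CPM in KO. Itgax, which encodes CD11c, had 1642 and 1264 CPM in WT and 601.8 and 1087 CPM in KO. Of the 25 tested genes of the identity list, 6 were 2-fold lower and 5 higher in pair 1, beside 8.34% and 12.2% of all tested genes. In pair 2 there was 1 each way, beside 6.21% and 4.39%. Those higher in pair 1 were Irf8, Cd1d1 and, at under 2 CPM in every day 1 library, Flt3, Clec9a and Spib. Irf8, a factor of monocytes and of another dendritic cell branch, had 12.3 and 16.2 CPM in WT and 85.9 and 9.63 CPM in KO. Of 21 lipid uptake and efflux genes, 5 were 2-fold higher and 3 lower in pair 1, beside 12.2% and 8.34% of all tested genes. In pair 2, 0 were higher and 3 lower, beside 4.39% and 6.21%. The median log2 ratios were 0.31 and -0.19. Those higher in pair 1 were Apoe, Olr1, Msr1, Abca1 and Lpin1. Among those lower there, Lpl, lipoprotein lipase, had 6017 and 5924 CPM in WT and 922.5 and 5344 CPM in KO. Cd36, a fatty acid scavenger receptor, had 180.4 and 537.7 CPM in WT and 7.27 and 369.4 CPM in KO.

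GM-CSF response genes were mixed in pair 1 and mostly within 2-fold in pair 2. Cish, a direct STAT5 target, had 579.0 and 568.0 CPM in WT and 580.9 and 492.5 CPM in KO, after 0.211 to 2.41 CPM in the 4 monocyte libraries. Pim1, another STAT5 target, had 547.0 and 440.3 CPM in WT and 440.2 and 409.6 CPM in KO. Csf2ra, the receptor's specific chain, had 437.0 and 357.0 CPM in WT and 505.5 and 340.9 CPM in KO. Each of these genes was within 2-fold in both pairs. Of the 21 list members, 6 were 2-fold higher and 3 lower in pair 1, with a median log2 ratio of 0.00, and in pair 2 there was 1 lower with a median of -0.17. Of all tested genes, 12.2% were 2-fold higher and 8.34% lower in pair 1, and 6.21% were lower in pair 2. The 3 lower in pair 1 were Ccl24, Irf4 and the cytokine gene Osm, and the feedback inhibitor Socs3 and the cyclin Ccnd2 were among the higher, with log2 ratios of 1.08 and 1.10. Csf2rb2, which encodes a form of the shared beta chain, was also among them, at 657.2 and 509.6 CPM in WT and 1642 and 452.0 CPM in KO, and shares near-identical sequence with Csf2rb, so counts of these 2 genes are uncertain.

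**Figure D3:**
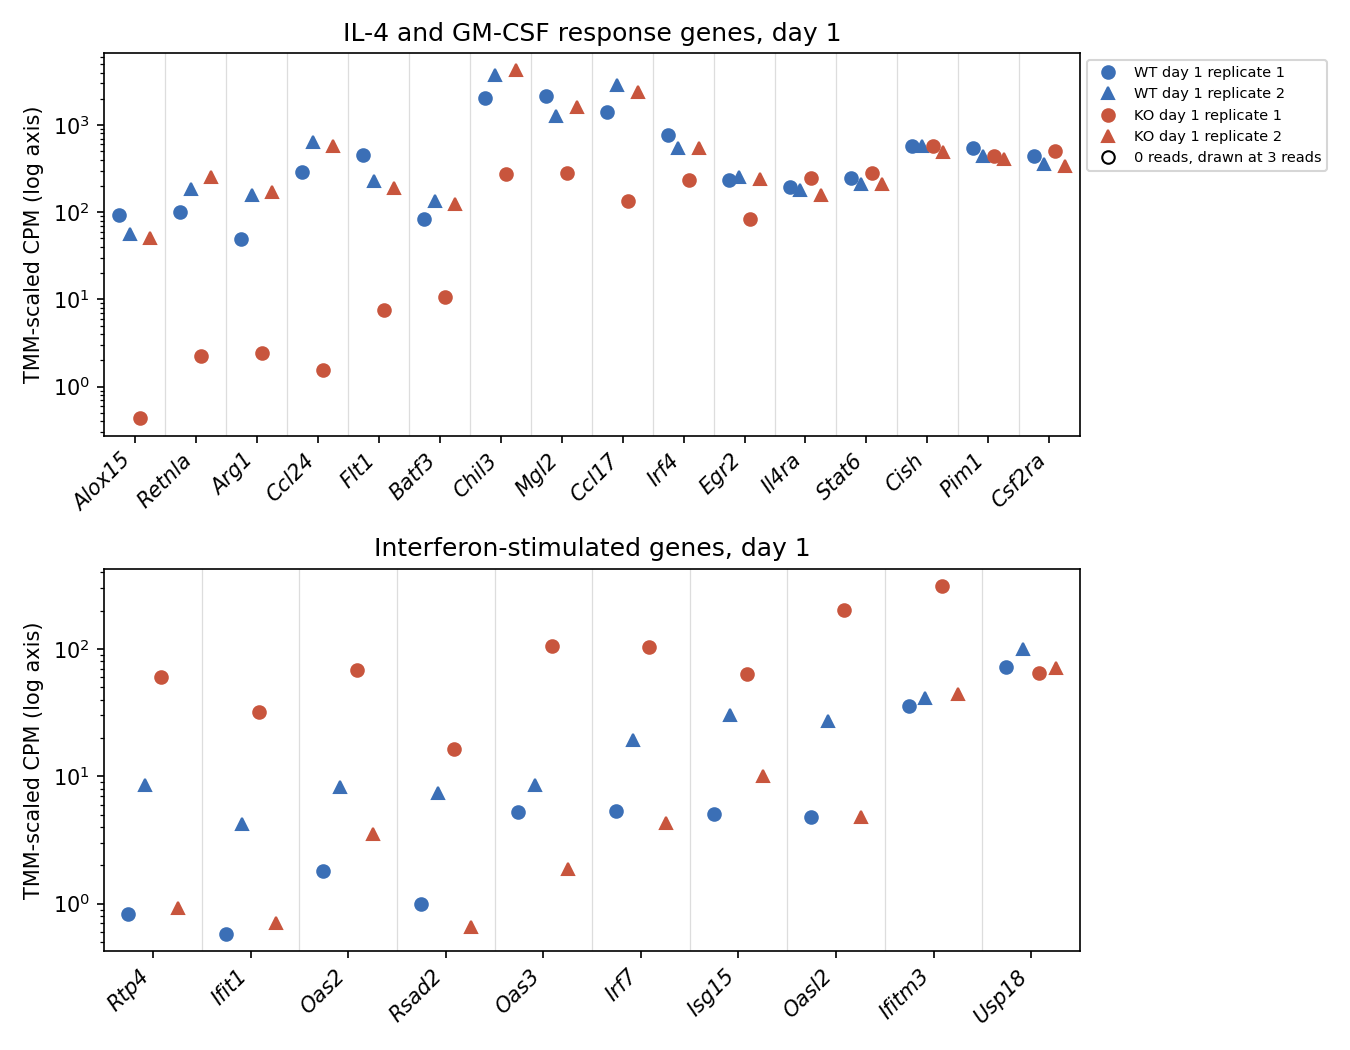
TMM-scaled CPM on a log axis in the 4 day 1 libraries (WT blue, KO red, circles replicate 1, triangles replicate 2) for 13 genes of the IL-4 response and its pathway and 3 of the GM-CSF response (upper panel) and 10 interferon-stimulated genes (lower panel). The library labelled KO replicate 1 is alone at the bottom for Alox15, Retnla, Arg1 and Ccl24 and alone at the top for all interferon-stimulated genes drawn except Usp18, and it lies with the others for Cish, at 580.9 CPM.

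Interferon-stimulated genes, which interferon switches on and many of which encode antiviral proteins, differed in opposite ways in the pairs. In pair 1, 38 of 39 tested genes were at least 2-fold higher in KO and 0 lower, beside 12.2% and 8.34% of all tested genes. In pair 2, 19 were at least 2-fold lower and 0 higher, beside 6.21% and 4.39%. The median log2 ratios were 2.80 and -0.97 (2.82 and -1.06 at the bound). The summed level was 508.6 and 986.2 CPM in WT, 2657 CPM in the library labelled KO replicate 1 and 594.6 CPM in KO replicate 2, and 3610 to 5497 CPM in the monocyte libraries. The WT libraries were themselves 2-fold apart for 25 of the 39, where 18.5% of all tested genes were. In the first KO library 33 of 39 were 2-fold above both WT libraries, where 5.78% of all tested genes and 3.79% of those with a mean of at least 5 CPM were; in KO replicate 2, 2 of 39 were 2-fold below both (Mx2 and Oas3), where 1.82% of all tested genes were. KO replicate 2 thus mostly fell between the WT libraries or near the lower one.

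Oas3, a sensor enzyme for double-stranded RNA, had 5.29 and 8.49 CPM in WT, 105.5 CPM in the library labelled KO replicate 1 and 1.86 CPM in KO replicate 2. Oasl2, a relative of it, had 4.79 and 27.1 CPM in WT and 200.6 and 4.76 CPM in KO, so KO replicate 2 matched the lower of 2 WT libraries that were far apart. Irf7, the factor that amplifies type I interferon production, had 5.37 and 19.3 CPM in WT and 102.6 and 4.32 CPM in KO. Rtp4 had 0.826 and 8.49 CPM in WT and 60.4 and 0.930 CPM in KO. Ifitm3, a membrane protein that blocks virus entry, had 35.6 and 41.2 CPM in WT and 310.3 and 44.5 CPM in KO, with only the first KO library high. Usp18, a brake on interferon receptor signalling, was the exception of the list, at 72.5 and 99.1 CPM in WT and 64.3 and 71.0 CPM in KO. Cxcl10, an interferon-induced chemokine kept on the chemokine list, had 0 and 6.20 CPM in WT and 19.6 and 1.31 CPM in KO.

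Some monocyte, macrophage and pattern recognition genes were higher in the library labelled KO replicate 1. Set against both WT libraries, 5 of 20 classical monocyte genes, 5 of 15 nonclassical monocyte genes, 6 of 19 macrophage genes and 5 of 17 Toll-like receptor genes were 2-fold above in it, where 5.78% of all tested genes were. The summed level of the classical monocyte list was the lowest there, at 8929 CPM against 9552 and 11990 CPM in WT and 12560 CPM in KO replicate 2. That order rests on Chil3, which is also on the IL-4 list. It had 2047 and 3745 CPM in WT and 277.4 and 4238 CPM in KO. Ly6c2, the marker of classical monocytes, had 28.9 and 56.2 CPM in WT, 298.4 CPM in that library and 60.5 CPM in KO replicate 2, after 1177 to 2205 CPM in the monocyte libraries. Plac8 had 2.89 and 10.8 CPM in WT and 36.5 and 4.16 CPM in KO, after 1122 to 2111 CPM. Both genes were thus far under their monocyte level in every day 1 library. For the pair counts that follow, the shares over all tested genes were 12.2% higher and 8.34% lower in pair 1. They were 4.39% and 6.21% in pair 2. Of 20 classical monocyte genes 8 were 2-fold higher and 1 lower in pair 1, and 0 and 2 in pair 2. Of 15 nonclassical monocyte genes 5 were 2-fold higher and 3 lower in pair 1, and 1 and 2 in pair 2. Of 17 Toll-like receptor and adaptor genes 10 were 2-fold higher in pair 1 and 0 in pair 2, with medians of 1.28 and 0.08 (0.01 at the bound). Tlr7, a sensor of single-stranded RNA, had 4.38 and 18.2 CPM in WT and 33.2 and 23.03 CPM in KO, and Tlr2, a sensor of bacterial lipoproteins, had 93.2 and 107.6 CPM in WT and 372.1 and 116.6 CPM in KO. Of 19 macrophage genes 8 were 2-fold higher and 3 lower in pair 1, and 1 and 2 in pair 2. Adgre1, which encodes F4/80, had 103.1 and 160.8 CPM in WT and 441.8 and 97.6 CPM in KO, and Siglec1, a sialic acid receptor, had 0 and 0.734 CPM in WT and 18.9 and 0.383 CPM in KO.

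**Figure D4:**
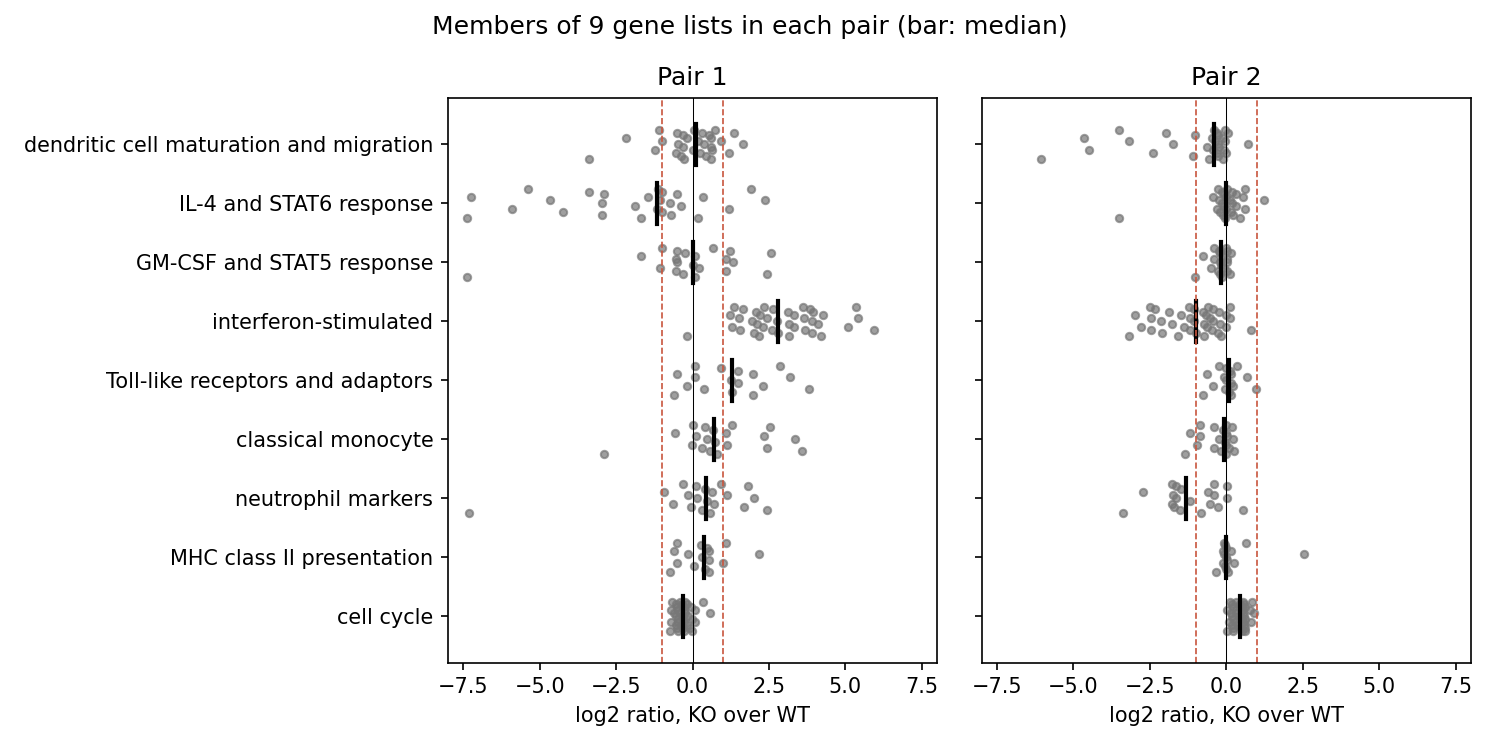
Log2 ratio of KO over WT for each tested member of 9 gene lists in pair 1 (left) and pair 2 (right), with a black bar at the list's median and dashed lines at 2-fold. The interferon-stimulated list has its median at 2.80 in pair 1 and -0.97 in pair 2, the IL-4 and STAT6 list at -1.16 and -0.01, and all 38 cell cycle genes lie within 2-fold in both.

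Neutrophil granule genes were another group lower in KO replicate 2 than in its WT partner. Of 20 neutrophil markers 11 were 2-fold lower in KO replicate 2 than in its partner and 0 higher, beside 6.21% and 4.39% of all tested genes. The median log2 ratio was -1.33 (-1.35 at the bound). The WT libraries were themselves 2-fold apart for 8 of the 20, where 18.5% of all tested genes were. In KO replicate 2, 3 of the 20 were 2-fold below both WT libraries, where 1.82% of all tested genes were. In pair 1 there were 5 higher and 1 lower, beside 12.2% and 8.34% of all tested genes, with a median of 0.44. Ltf, lactoferrin of secondary granules, had 153.4 and 160.9 CPM in WT and 203.0 and 47.6 CPM in KO. Ngp had 204.1 and 253.6 CPM in WT and 302.7 and 80.4 CPM in KO, and Camp, which encodes cathelicidin, 44.1 and 83.0 CPM in WT and 68.2 and 24.1 CPM in KO. S100a9, a calcium-binding protein of neutrophils and monocytes, had 296.3 and 861.9 CPM in WT and 327.9 and 263.5 CPM in KO, so here WT replicate 2 was the library that stood out. Cxcr2, a chemokine receptor of neutrophils, was the 1 list member lower in pair 1, with 217.2 and 189.1 CPM in WT and 1.21 and 142.1 CPM in KO. The chemokine Pf4, best known from platelets, had 21.4 and 93.8 CPM in WT and 85.3 and 29.4 CPM in KO, with opposite ratios in the pairs.

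Few genes were well above WT in pair 2. Plxdc2, a membrane protein, had 53.6 and 44.1 CPM in WT and 53.3 and 108.7 CPM in KO. The next 7 by the fixed rule were under 2-fold: Rpa2, a single-stranded DNA binding protein, had 17.3 and 14.8 CPM in WT and 19.6 and 28.6 CPM in KO, and Ccne1, cyclin E1, had 39.3 and 21.1 CPM in WT and 26.0 and 37.0 CPM in KO. Of 38 cell cycle genes 0 reached 2-fold in either pair, with log2 ratios from -0.74 to 0.58 in pair 1 and from 0.01 to 0.91 in pair 2 and medians of -0.32 and 0.46. The WT libraries were 2-fold apart for 9 of the 38, where 18.5% of all tested genes were. In pairs 1 and 2, 20.6% and 10.6% of all tested genes were 2-fold apart. Mki67, a marker of dividing cells, had 421.0 and 212.3 CPM in WT and 295.7 and 300.4 CPM in KO, so both KO libraries lay between the WT libraries.

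Antigen presentation genes were read against the 20.6% of all tested genes that were 2-fold apart in pair 1 and the 10.6% in pair 2. Of 16 tested MHC class II genes 3 were 2-fold higher and 0 lower in pair 1 and 1 higher in pair 2. H2-Aa, a class II alpha chain, had 1812 and 1806 CPM in WT and 2207 and 1843 CPM in KO. H2-Oa, the 1 member 2-fold higher in both pairs, had 0 reads in WT and 0.606 and 0.821 CPM in KO, too low to read further. Of 18 MHC class I genes 4 were 2-fold higher in pair 1 and 0 in pair 2, and of 19 unfolded protein response genes 2 were lower in pair 1 and 0 in pair 2.

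Culture stages on either side place the day 1 values. The maturation genes that KO replicate 2 lacked were nearly absent from monocytes and very high in WT cells a day later. Fscn1 was at 0 to 0.496 CPM in the 4 monocyte libraries, and at day 2 had 731.5 and 998.3 CPM in WT and 106.9 and 23.6 CPM in KO. Ccr7 was at 0 to 0.286 CPM in monocytes, and at day 2 had 853.1 and 739.0 CPM in WT and 98.0 and 9.08 CPM in KO. Aldh1a2 at day 2 had 2377 and 1360 CPM in WT and 15.3 and 0.654 CPM in KO. For these 3 genes both KO libraries lay below both WT libraries at day 2. The IL-4 and STAT6 list summed at day 2 to 17940 and 26360 CPM in WT and 13310 and 19020 CPM in KO. Within it, Alox15 had 91.3 and 370.7 CPM in WT and 184.1 and 722.7 CPM in KO, and Ccl24 had 258.4 and 135.4 CPM in WT and 167.4 and 130.4 CPM in KO, so neither gene was near 0 in KO cells at day 2. The test of whether the KO effect differed between stages called 0 of 14034 genes for day 1 against monocytes and 0 for day 2 against day 1 in edgeR, with smallest adjusted p of 0.265 and 0.0685, and 400 (2.85%) and 340 (2.42%) genes had an unadjusted p under 0.05. With the experiment as a replicate block, 2 genes were called for day 2 against day 1, Map3k14 and Slc4a8, both with an adjusted p of 0.0382 in edgeR, and 0 for day 1 against monocytes. Map3k14, the kinase that starts the alternative NF-kB pathway, was close to WT at day 1, at 33.0 and 25.5 CPM in WT and 34.8 and 20.4 CPM in KO. The names of the deposited files for replicate 2 say 16 hours where the labels say 1 day, so pairs 1 and 2 may not share a culture time, and pair and time cannot be told apart.

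**Figure D5:**
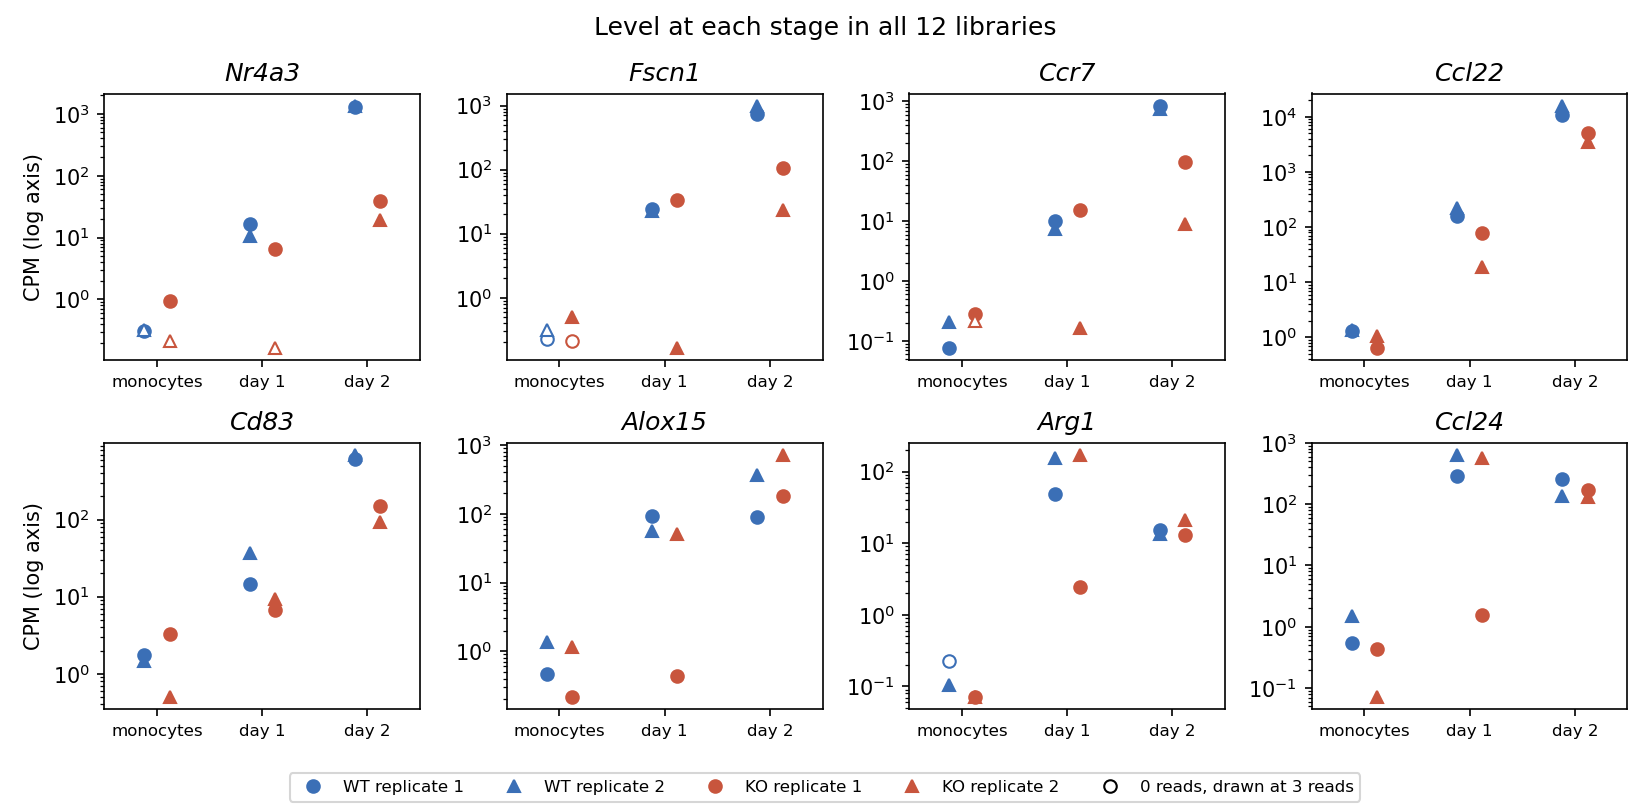
CPM on a log axis in all 12 libraries for 8 genes at the 3 stages (WT blue, KO red, circles replicate 1, triangles replicate 2, open symbols 0 reads drawn at 3 reads). At day 1 KO replicate 2 stays at monocyte levels for Nr4a3, Fscn1 and Ccr7, while the library labelled KO replicate 1 stays at or near monocyte levels for Alox15 and Ccl24.

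Leaving out KO replicate 2 changed what the replicated test called. With the library labelled KO replicate 1 alone against both WT libraries, which assumes that it varies like the other groups, edgeR called 15 genes higher and 10 lower. The 10 included Arg1, Ccl24, Flt1, Cxcr2, Rufy4 and Lpl, with log2 fold changes from -11.75 for Rufy4 to -2.68 for Lpl and adjusted p from 0.0160 to 0.0458. Without any other 1 day 1 library it called 0, including when the doubted library was left out and KO replicate 2 stood alone. Without KO replicate 2, Fscn1 and Ccr7 had log2 fold changes of 0.52 and 0.83, above WT.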

How the data were processed

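RNA-seq was done on 12 mouse libraries (6 groups of 2) made with a strand-specific mRNA kit from 20 ng of RNA and 16 PCR cycles, per the labels' protocols. Reads were trimmed with Trimmomatic 0.35 and aligned to GRCm38 with STAR 2.5.1b, per the submitters' processing notes; no source used here names the annotation release. The deposited files hold raw read counts per gene by strand, and 1 column of counts per file (the strand that holds most reads) was used. Each file also has 4 lines that name no gene, which were left out; in the day 1 libraries reads outside genes were 7.42% to 11.2% and unmapped reads 2.65% to 3.68% of the reads these lines and the genes account for. Of 47643 gene IDs, 47224 matched a symbol.

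From the counts, genes that pass edgeR's expression filter by group (14034) were scaled by TMM and fitted with edgeR 4.0.16 in R 4.3.3 (robust quasi-likelihood, all 12 libraries, no block, 6 residual degrees of freedom), with Benjamini-Hochberg adjustment over all tested genes. The SE given with a log2 fold change was worked back from the test, not estimated by the fit. It is the absolute log2 fold change divided by the square root of the F statistic. Each pair was also described by its log2 ratio of CPM with a prior count of 2, called at 2-fold. Ratios of 1 library to another carry exact binomial 95% intervals, and 0 reads were taken as 3 for bounds. Alternatives were DESeq2 1.42.0, other scalings, filters and prior counts, unstranded counts, replicate blocks and left-out libraries. The fit was also run on simulated counts with planted changes and no library standing apart, unlike the day 1 data.

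Genes are named by rule: the 12 furthest from WT in both pairs (mean of at least 10 CPM), the 8 furthest in either pair (20 CPM), and up to 4 members per list; other genes and list members described were chosen after their values were seen. Members and lists were chosen with earlier results of these data known. The labels call replicates independent experiments, so p-values measure the spread between them. Same-dated libraries gave a correlation of paired deviations of 0.19, from 2 pairs, too few to decide that the numbers pair the samples.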

Additional observations from a re-analysis of the deposited data

How the results depend on the processing

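The count of genes called at day 1 was 0 in each direction under other scalings, unstranded counts, the 4 day 1 libraries alone and each pair alone. It was 112 higher and 28 lower with no low-count filter and 2 higher and 1 lower with DESeq2. Leaving out 1 library gave 0 to 15 higher and 0 to 10 lower, the upper values without KO replicate 2. With a replicate block (the experiment, or the number alone) the count stayed at 0 and 0 (352 and 286 genes at an unadjusted p under 0.05), and the pairing of the samples rests on 2 pairs only; the interaction of day 2 against day 1 called 2 genes (Map3k14 and Slc4a8) with the block by experiment. With a prior count of 0.5, 248 genes were 2-fold higher in both pairs; with 5, 395 were higher in pair 2, 75 higher in both and 64 lower in both. At a mean of at least 5 CPM the 2-fold counts were 584 higher and 395 lower in pair 1, 50 and 103 in pair 2, 10 and 8 in both, and 902 and 755 where the groups did not overlap. Some fold changes changed sign: without KO replicate 2, Nr4a1 was at -0.07753, Ccr7 at 0.83 and Fscn1 at 0.52; without WT replicate 1, Ccr7 was at 0.08; in pair 1 alone, Ccr7 was at 0.64 and Fscn1 at 0.47. Leaving out 1 library gave Nr4a1 up to 1.2, and without the library labelled KO replicate 1 Ccr7 was at -5.64 and Fscn1 at -7.06. The cause was not tested. With 2 libraries a group and 10733224 to 18447405 reads, genes of a few CPM carry wide counting error.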

Other observations

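Further gene groups held members that set the library labelled KO replicate 1 apart. Of all tested genes, 12.2% were 2-fold higher and 8.34% lower in pair 1, and 4.39% and 6.21% in pair 2. Of 17 genes of matrix proteases and their inhibitors, 7 were 2-fold higher and 3 lower in pair 1, and 0 and 2 in pair 2. The WT libraries were 2-fold apart for 7 of the 17, where 18.5% of all tested genes were. Mmp14, a membrane-bound collagenase, had 67.6 and 70.5 CPM in WT and 329.3 and 58.7 CPM in KO, and Mmp8, the neutrophil collagenase, 85.2 and 196.2 CPM in WT and 463.0 and 198.1 CPM in KO. Plau, the urokinase-type plasminogen activator, had 730.8 and 647.2 CPM in WT and 152.8 and 616.4 CPM in KO, and Adam8, a membrane protease, 1617 and 1089 CPM in WT and 385.0 and 978.0 CPM in KO. Of 23 immediate early and AP-1 genes, 6 were 2-fold lower and 1 higher in pair 1, among them Atf3, a stress-induced factor, with 129.5 and 172.2 CPM in WT and 26.5 and 163.8 CPM in KO.

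Of 22 chemokines tested, 17 were 2-fold apart between the WT libraries, where 18.5% of all tested genes were. In pair 1, 9 were 2-fold higher and 4 lower, beside 12.2% and 8.34% of all tested genes. In pair 2, 0 were higher and 8 lower, beside 4.39% and 6.21%. Ccl9, which attracts myeloid cells, had 414.2 and 1208 CPM in WT and 319.7 and 1086 CPM in KO, and Ccl6 had 344.6 and 1154 CPM in WT and 382.0 and 1130 CPM in KO, so for both the libraries of 1 pair lay close together and the pairs lay apart. Of 25 glycolysis and hypoxia genes, 3 were 2-fold higher and 1 lower in pair 1 and 1 and 1 in pair 2, where 20.6% and 10.6% of all tested genes were 2-fold apart. Pfkp, a phosphofructokinase, was at 1392 and 1131 CPM in WT and 481.3 and 1143 CPM in KO.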
